A study of Ovis aries with 8 samples.

Results

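The genes described here are the zinc finger genes whose symbol is ZNF followed by a number, as measured in the longissimus thoracis (rib-eye) muscle of castrated Dorper x Santa Inês crossbred lambs. Of 208 such symbols in the deposited count table, 196 had a mean of at least 1 CPM (counts of a gene per 1000000 counts of the library) over the 8 libraries and were taken as members, out of 11247 genes in all. The 4 CON lambs were fed a control diet and the 4 SM20 lambs the same trial's diet with 20% soybean molasses, a sugar-rich liquid left from soy protein concentrate. The lambs were drawn at random from a trial of 20, with 10 per diet, each library comes from 1 lamb, and polyadenylated RNA was sequenced. The question is which of these transcripts differ in muscle between the diets. Bulk tissue was measured, so fewer cells of a type and less RNA per cell cannot be told apart.

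Most ZNF proteins belong to the C2H2 class, in which a pair of cysteines and a pair of histidines hold a zinc ion and each finger reads a short stretch of DNA. Many carry a KRAB domain, which recruits the corepressor TRIM28 and with it the histone methyltransferase SETDB1, and such proteins are best known for silencing transposable elements. The ZNF symbol is a naming class rather than a functional one: others among these proteins activate promoters, belong to chromatin complexes or bind RNA and ribosomes. Many KRAB genes lie in clusters of similar copies, so assignment of reads between paralogs is uncertain for them.

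Total counts ran from 8675527 to 11210065 per library. The 196 genes held 0.249% to 0.346% of them in the CON lambs and 0.356% to 0.375% in the SM20 lambs. All 196 passed the expression filter and were among the 9779 genes tested. The members closest above the limit were *ZNF793*, *ZNF660* and *ZNF572*, with means of 1.07, 1.16 and 1.25 CPM, and those closest below it were *ZNF382*, *ZNF404* and *ZNF502*, with 0.866, 0.870 and 0.967 CPM. Of the 20 muscle fibre markers looked for, 16 were in the table and together held 190814 to 283418 CPM per lamb, against at most 2761 CPM for the 10 fibroblast markers, 1354 CPM for 8 adipocyte markers, 810 CPM for 10 endothelial markers and 48.0 CPM for 9 macrophage and leukocyte markers. From here on levels are CPM on TMM-scaled library sizes, with the values of single lambs in the order of lambs 1 to 4 and errors as SD over 4 lambs.

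No ZNF gene passed the threshold between the diets. With the quasi-likelihood test of edgeR, 0 of 196 members had a Benjamini-Hochberg adjusted p under 0.05, against 0.0511% (5 genes) of all genes tested, and the smallest adjusted p was 0.114. An unadjusted p under 0.05 was found for 28 members, 14.3% of them against 18.3% of all genes. Of these 28, 21 were higher in SM20 (10.7% of members, against 9.84% of all genes) and 7 were lower (3.57%, against 8.45%). The diets did not overlap for 14 members on the higher side and 6 on the lower side, 7.14% and 3.06%, against 6.54% and 5.67% of all genes. Taken over all levels, the shares of ZNF genes were close to those of all genes on the higher side and smaller on the lower side. The 7041 other genes of similar level, taken from the same range, had a higher median level (3.46 log2 CPM, against 2.78 for members). Among these other genes, 8.89% were higher and 7.56% lower with an unadjusted p under 0.05. The diets did not overlap for 6.04% of these on the higher side and 4.86% on the lower side. DESeq2, run on the same counts, placed 3 members higher and 1 lower past 0.05, 1.53% and 0.510% against 2.65% and 2.09% of all genes.

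The fold changes of the family leaned slightly upward. A positive log2 fold change (SM20 against CON) was found for 122 of the 196 genes and a negative one for 74, so that 62.2% were positive against 50.7% of all genes tested. The median log2 fold change was 0.10, against 0.01 for all genes, and the quartiles of the family were -0.12 and 0.32. The rest of the muscle transcriptome at similar levels, 7041 other genes between 1.62 and 47.5 CPM, had 50.6% positive and a median of 0.01. Large differences were few: 18 members exceeded 0.5 and 6 were under -0.5, 9.18% and 3.06% of members against 7.98% and 7.13% of the genes of similar level. The range within the family, from -0.66 for *ZNF428* to 1.07 for *ZNF699*, lay inside that of the other genes, from -3.08 to 3.24.

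**Figure D1:**
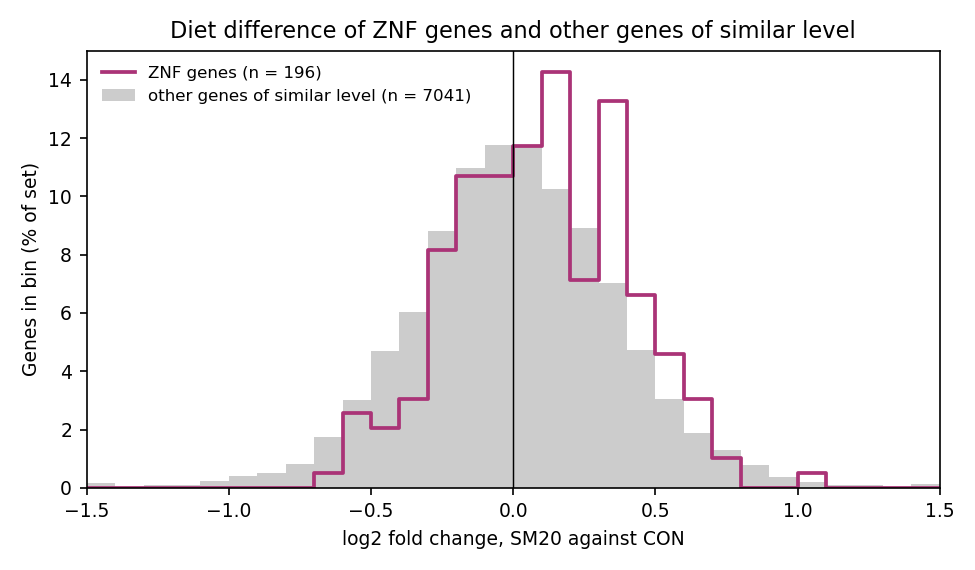
Log2 fold change of SM20 against CON (x axis, bins of 0.1) and share of each set in a bin (y axis, percent) for 196 ZNF genes (line) and 7041 other genes of similar level (grey bars); values beyond -1.5 or 1.5 are counted in the outermost bins. Of the ZNF genes 62.2% lie right of 0, against 50.6% of the other genes.

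The lean was carried largely by 1 control lamb. The mean log2 CPM over the 196 genes was 2.73, 2.93, 3.05 and 3.01 in CON lambs 1 to 4 and 3.07, 3.04, 3.04 and 3.01 in SM20 lambs 1 to 4. On this measure the diets overlapped: CON lamb 3 lay above SM20 lambs 3 and 4 and barely above SM20 lamb 2. CON lamb 1 lay well below all others. The family's unscaled share of total counts, to which ZNF106 gave most, did not overlap (0.249% to 0.346% in CON, 0.356% to 0.375% in SM20). The diet means of the log2 level were 2.93 ± 0.14 in CON and 3.04 ± 0.02 in SM20. The spread of this level between control lambs was thus larger than the difference between diets. In CON lamb 1, 28.6% of the members were above their own mean over the 8 lambs, against 42.3% to 63.3% in the other lambs. CON lamb 1 had the lowest level of all 8 lambs for 71 of the 196 genes, 36.2%, against 21.7% of the genes of similar level. This library also had the smallest TMM factor (0.885, against 0.922 to 1.10), the highest summed level of muscle fibre markers (283418 CPM, against 190814 to 246992 CPM) and the highest sum of immediate early genes (921 CPM, against 258 to 898 CPM). Their part in the result was not tested.

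Without CON lamb 1, 103 members were positive and 93 negative, so that 52.6% were positive against 49.8% of all genes, and the median was 0.03. Leaving out any other single lamb gave 58.2% to 66.8% positive, and 167 of the 196 genes kept their sign without CON lamb 1. The scaling moved members and all genes alike. The share of positive members was 68.9% without scaling factors and 58.7% under upper-quartile scaling, against 56.6% and 46.6% of all genes. The members' median stayed 0.10 above that of all genes under each of these scalings.

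Several marker lists had medians further from 0 than that of the ZNF genes, and those of muscle fibres, endothelium and satellite cells are described next. Adipocyte, smooth muscle with pericyte and immediate early genes were also further (-0.27, -0.16 and 0.20). Fibroblast, macrophage with leukocyte and Schwann cell with nerve markers were closer (0.01, 0.09 and 0.03). Single lambs moved such medians: smooth muscle was at 0.02 without CON lamb 3, and Schwann cells at 0.44 without CON lamb 2. Of 16 muscle fibre markers 12 were negative (median -0.22, and -0.11 without CON lamb 1 or -0.35 without CON lamb 3), and 0 passed by edgeR. The 1 marker past the threshold by DESeq2 was *NEB*, the thin filament protein nebulin, which was higher in SM20 (log2 fold change 0.65, adjusted p = 0.000432). Next by p was *TNNI1*, which was lower (log2 fold change -0.65, adjusted p = 0.225 by edgeR). Of 10 endothelial markers 7 were negative (median -0.27, and -0.17 without CON lamb 4), with *EGFL7* and *CLDN5* past the threshold by DESeq2 (adjusted p = 0.0153 and 0.0460) and 0 by edgeR. Among the 3 positive ones, *KDR* had a log2 fold change of 0.43 (unadjusted p = 0.0301 by edgeR). The sums of the 10 endothelial markers were 560 to 810 CPM in CON and 491 to 742 CPM in SM20. All 7 satellite cell markers tested were positive (median 0.25, and 0.43 without CON lamb 1). Without CON lamb 3 or SM20 lamb 3, 1 was negative. Those with the smallest p were *MYOD1* (log2 fold change 0.59) and *VCAM1* (0.43). Of the satellite cell markers 0 passed by either tool, and their sums were 50.6 to 73.6 CPM in CON and 60.2 to 91.8 CPM in SM20. The part of these markers in the lean of the ZNF genes was not tested.

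**Figure D2:**
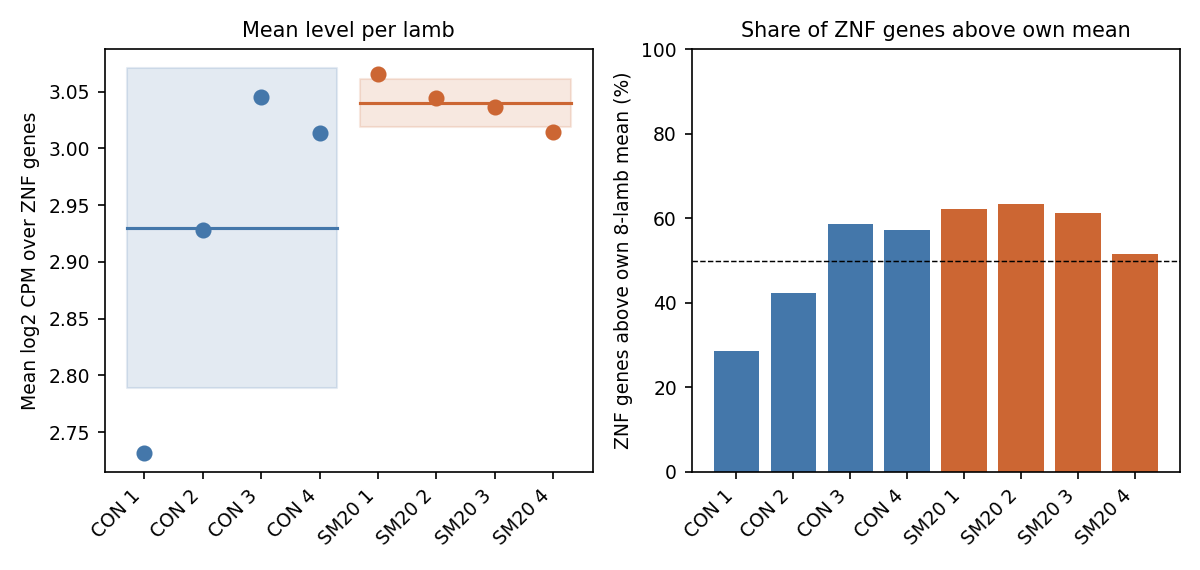
Left, mean log2 CPM over the 196 ZNF genes in each lamb (points), with the mean of each diet (line) and its SD over 4 lambs (band); right, share of the 196 genes above their own mean over the 8 lambs (bars, percent). CON lamb 1 is lowest in both, at 2.73 and 28.6%.

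**Figure D3:**
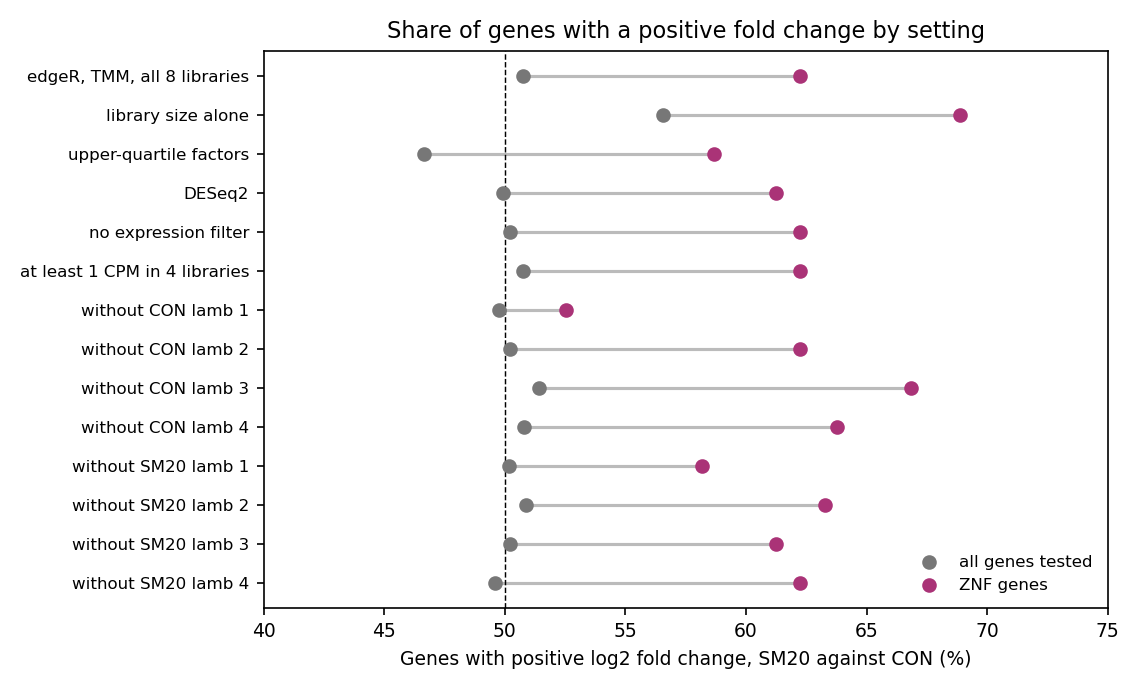
Share of genes with a positive log2 fold change (x axis, percent) for all genes tested (grey) and for ZNF genes (purple) with the main test and under each other setting (y axis). The gap narrows to 52.6% against 49.8% without CON lamb 1.

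The spread between lambs was close to that of the other genes in the same range of levels. Those genes had a higher median level (3.46 log2 CPM, against 2.78 for members), so the 2 sets are not matched exactly. The median biological coefficient of variation was 0.211 for members and 0.204 for genes of similar level, and the median SD of log2 CPM within a diet was 0.30 against 0.27 in CON and 0.28 against 0.27 in SM20. The median standard error of a member's log2 fold change was 0.22. With the family divided by level at 2.36 and 3.45 log2 CPM, the upper band had 46 of 66 genes positive (69.7%, median 0.15), against 52.8% of the other genes in that band. The middle and lower bands had 38 of 65 positive each (58.5%, medians 0.08 and 0.09), against 49.5% and 46.6%. An unadjusted p under 0.05 on the higher side was found for 21.2% of members in the upper band, against 13.1% of the other genes there. In the middle and lower bands these shares were 7.69% and 3.08%, against 7.33% and 3.91%. On the lower side they were 6.06%, 4.62% and 0% from the upper to the lower band, against 9.88%, 8.22% and 5.20%.

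The 8 members with the smallest p on the higher side had log2 fold changes between 0.51 and 1.07. *ZNF148*, a factor that binds GC-rich promoters and can activate or repress them, was at 16.2, 13.7, 18.9 and 17.3 CPM in CON and 25.1, 20.5, 25.0 and 34.0 CPM in SM20. Every SM20 lamb was above every CON lamb. The means were 16.5 ± 2.21 and 26.2 ± 5.64 CPM, a log2 fold change of 0.66 ± 0.18 (SE), with an adjusted p of 0.114 by edgeR and 0.0274 by DESeq2.

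*ZNF140* encodes a KRAB repressor. It was at 10.5, 12.3, 15.4 and 14.8 CPM in CON and 18.5, 21.8, 17.3 and 22.2 CPM in SM20, again without overlap. Its log2 fold change was 0.59 ± 0.17 (SE), with an adjusted p of 0.121 by edgeR and 0.0341 by DESeq2. *ZNF507* was at 7.70, 11.1, 6.91 and 8.03 CPM in CON and 16.9, 12.7, 10.9 and 16.4 CPM in SM20, where SM20 lamb 3 fell just under CON lamb 2. Its log2 fold change was 0.75 ± 0.21 (SE), with an adjusted p of 0.118 by edgeR and 0.0314 by DESeq2.

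The remaining 5 missed the threshold with both tools or were given no adjusted p by DESeq2. *ZNF24* is a SCAN-domain factor described in human cells as a repressor of VEGFA transcription. It was at 15.6, 20.3, 24.1 and 19.1 CPM in CON and 23.7, 30.0, 29.0 and 30.2 CPM in SM20, with SM20 lamb 1 just under CON lamb 3. *ZNF654* was at 13.9, 21.5, 16.3 and 13.9 CPM in CON and 20.3, 26.8, 24.2 and 27.8 CPM in SM20, also with 1 crossing pair. *ZNF608*, a paralog of ZNF609, was at 4.75, 6.39, 7.68 and 5.84 CPM in CON and 9.48, 7.73, 9.73 and 11.2 CPM in SM20, without overlap.

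The KRAB genes *ZNF248* and ZNF699 also had diets that did not overlap. ZNF248 was at 4.75, 5.91, 5.47 and 6.15 CPM in CON and 8.35, 9.02, 6.34 and 11.8 CPM in SM20. ZNF699, with the highest fold change of the family at 2.10-fold, was at 1.13, 0.484, 0.768 and 1.04 CPM in CON and 2.06, 1.29, 2.26 and 1.59 CPM in SM20. At this level it rests on few reads per library, and its standard error of 0.34 on the log2 scale was among the wider ones. Adjusted p-values by edgeR for these 5 genes ran from 0.134 for ZNF654 to 0.147 for ZNF699.

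On the lower side *ZNF358*, which held the largest share after ZNF106 and ZNF75D of the family's counts, was at 116, 138, 89.8 and 107 CPM in CON and 84.0, 86.5, 71.6 and 74.9 CPM in SM20. All SM20 lambs were below all CON lambs. The means were 113 ± 20.2 and 79.3 ± 7.12 CPM, a log2 fold change of -0.51 ± 0.15 (SE), with an adjusted p of 0.124 by edgeR and 0.0372 by DESeq2.

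*ZNF205*, a KRAB gene, was at 9.74, 10.6, 12.9 and 11.7 CPM in CON and 7.88, 8.52, 7.13 and 7.65 CPM in SM20, without overlap. *ZNF219*, known as a partner of SOX9 in mouse cartilage cells, was at 27.2, 23.6, 22.2 and 24.3 CPM in CON and 21.5, 19.8, 16.1 and 19.0 CPM in SM20, also without overlap. *ZNF414* was at 10.1, 6.87, 7.10 and 7.30 CPM in CON and 5.44, 5.85, 5.54 and 4.17 CPM in SM20. Its diets did not overlap either, and CON lamb 1 stood above the other controls.

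ZNF428 was at 9.62, 6.20, 7.01 and 9.59 CPM in CON and 5.16, 6.14, 3.96 and 5.17 CPM in SM20, with CON lamb 2 and SM20 lamb 2 nearly touching. *ZNF672* was at 26.3, 16.8, 20.4 and 26.5 CPM in CON and 13.1, 18.4, 14.1 and 14.4 CPM in SM20. Here SM20 lamb 2 lay above CON lamb 2. For *ZNF771* and *ZNF688* the diets overlapped as well, with log2 fold changes of -0.42 ± 0.19 and -0.46 ± 0.21 (SE). ZNF688 had an unadjusted p of 0.0532 and entered because only 7 genes were lower with a p under 0.05. Adjusted p-values by edgeR for these 7 genes ran from 0.134 for ZNF205 to 0.280 for ZNF688.

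**Figure D4:**
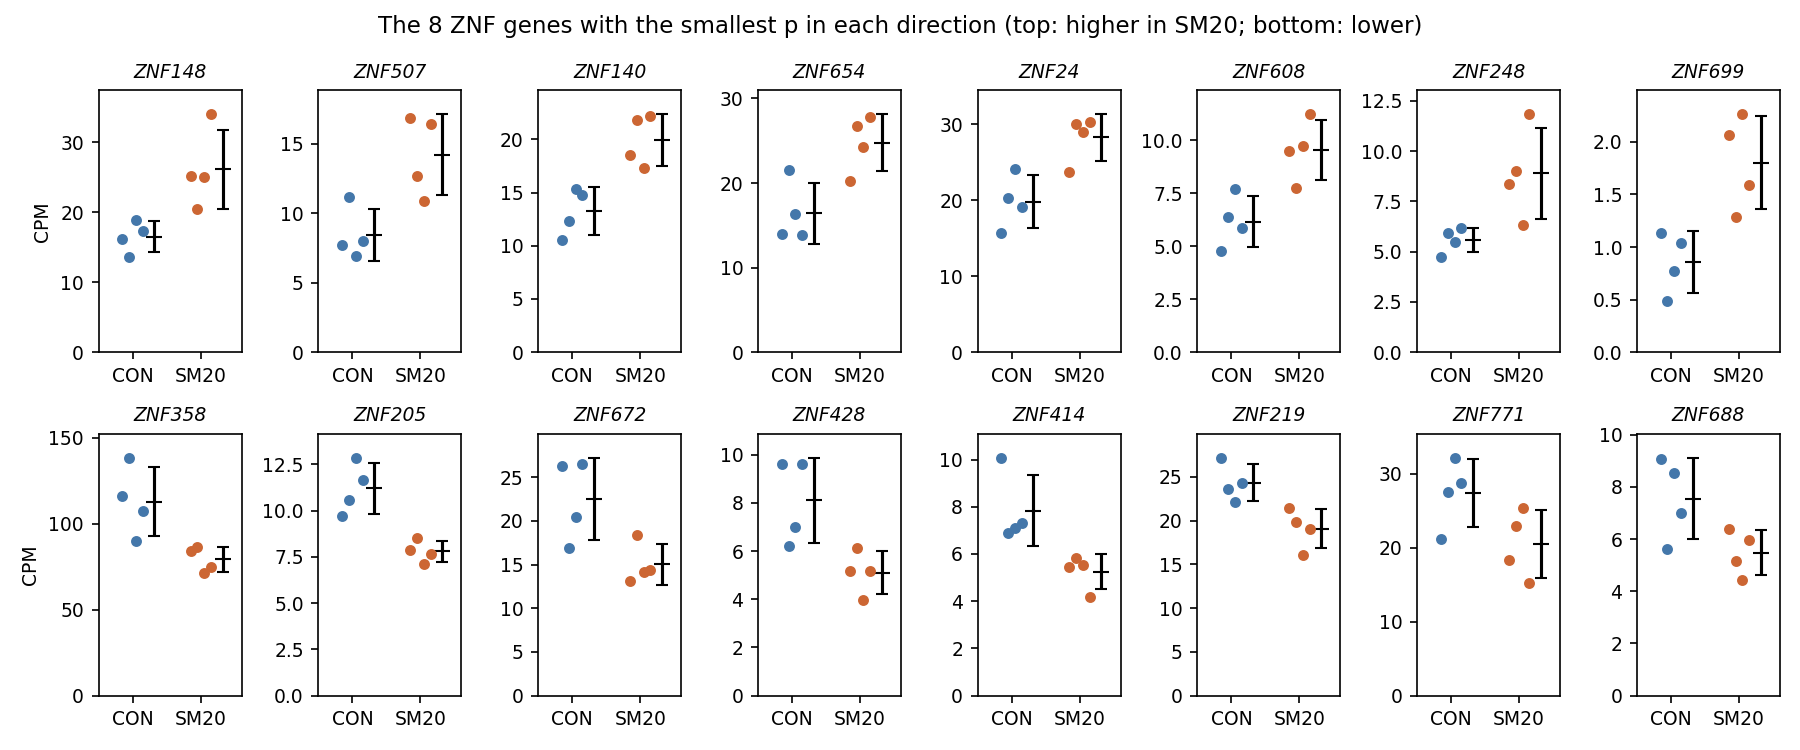
CPM on TMM-scaled library sizes (y axes from 0) of the 8 ZNF genes with the smallest p on each side, in CON (blue) and SM20 (orange) lambs; each point is 1 lamb, and black marks are the mean ± SD over 4 lambs. The diets are separate for ZNF148, ZNF140, ZNF608, ZNF248, ZNF699, ZNF358, ZNF205, ZNF428, ZNF414 and ZNF219, and no gene passes the threshold by edgeR.

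The other genes without overlap between diets, outside the sets above and chosen here for that property, were *ZNF667*, *ZNF326*, *ZNF184*, *ZNF773*, *ZNF518A*, *ZNF644*, *ZNF281*, *ZNF652* and *ZNF283* on the higher side and *ZNF692* on the lower side. Their log2 fold changes ran from 0.31 for ZNF652 to 0.78 for ZNF184, and ZNF692 had -0.27 ± 0.14 (SE). All 28 genes with an unadjusted p under 0.05 kept the sign of their fold change when any single lamb was left out. Without CON lamb 1, 22 of them kept a p under 0.05. They were chosen for a small p in these same lambs, so their signs could hardly change. The matching shares of all genes were not computed, and no conclusion is drawn.

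Genes that activate promoters broadly were represented by 5 members, of which 0 passed the threshold by edgeR and 1, ZNF148, by DESeq2. Besides ZNF148 they were *ZNF143*, which activates the selenocysteine tRNA gene and many housekeeping promoters, its paralog *ZNF76*, *ZNF384* and *ZNF711*, a paralog of ZFX. ZNF143 had means of 27.1 ± 2.11 CPM (CON) and 29.6 ± 6.28 CPM (SM20), a log2 fold change of 0.13 ± 0.17 (SE). ZNF76 had 0.10 ± 0.18, ZNF384 0.01 ± 0.13 and ZNF711 0.18 ± 0.35, each smaller than its standard error. The median of the 5 was 0.13, against 0.01 for all genes. Without SM20 lamb 1 it was 0.04, with 3 positive and 2 negative. It was 0.06 when SM20 lamb 4 was left out, 0.08 when CON lamb 3 was and 0.27 when SM20 lamb 3 was.

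Members known from adipocyte or lipid biology had no common direction. Of 9 such genes looked for, 4 were members, with 2 positive, 2 negative and a median of -0.01. The split was the same when any single lamb was left out, with medians from -0.09 (without CON lamb 3) to 0.03 (without CON lamb 2). *ZNF423*, whose mouse counterpart commits precursor cells to the fat lineage, was at 37.8, 30.5, 29.5 and 27.6 CPM in CON and 31.9, 31.7, 25.0 and 23.6 CPM in SM20, with overlapping diets and a log2 fold change of -0.16 ± 0.15 (SE). *ZNF521*, which counteracts that step in mouse cells, was at 7.02, 5.71, 6.34 and 6.57 CPM in CON and 4.97, 5.15, 6.34 and 4.37 CPM in SM20. The diets crossed only through SM20 lamb 3, and its log2 fold change was -0.30 ± 0.19. *ZNF395*, a hypoxia-induced factor in human cells, was at 12.9, 10.7, 13.0 and 17.4 CPM in CON and 25.1, 17.3, 20.0 and 15.3 CPM in SM20. It had 0.53 ± 0.20 with an adjusted p of 0.198 by edgeR, and SM20 lambs 2 and 4 did not exceed CON lamb 4. *ZNF202*, a repressor of lipid transport genes in human cells, had 0.15 ± 0.26. Of the 8 adipocyte markers tested, 7 were negative (median -0.27) and 0 passed by either tool. The split and the size of the median moved with single lambs. Without CON lamb 3 the markers were 4 positive and 4 negative (median -0.04). Leaving out CON lamb 2, SM20 lamb 2 or CON lamb 4 gave medians of -0.15, -0.17 and -0.46. The sums of these markers were 855 to 1354 CPM in CON and 839 to 1006 CPM in SM20. They were mostly *GPD1*, which averaged 1034 ± 199 and 828 ± 70.4 CPM and is also expressed in muscle fibres. *LPL*, second to GPD1 by p, had a log2 fold change of -0.51 ± 0.27 (SE; adjusted p = 0.350 by edgeR). The 1 positive marker was *ADIPOQ*, with means of 14.2 ± 9.43 CPM (CON) and 21.0 ± 7.37 CPM (SM20). Its log2 fold change was 0.55 ± 0.44 (SE; adjusted p = 0.531 by edgeR). The part of fat cell content in these values was not tested.

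Among the 10 members that act on RNA or ribosomes, 6 were positive and 4 negative (median 0.05), and 0 passed by either tool. Leaving out 1 lamb moved this median between -0.0149 (without SM20 lamb 4) and 0.12 (without SM20 lamb 1), and it was 0.01 without CON lamb 1. *ZNF106*, an RNA-binding protein whose loss causes neuromuscular degeneration in mice, held the largest share of the family's counts. It was at 596.0, 1088, 540.5 and 819.8 CPM in CON and 956.0, 934.5, 1048 and 1088 CPM in SM20. The control lambs covered nearly the whole range, while the SM20 lambs lay close together at its upper end. The means were 761 ± 249 and 1007 ± 73.5 CPM, a log2 fold change of 0.40 ± 0.20 (SE) with an adjusted p of 0.316 by edgeR.

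ZNF326, a subunit of a complex that links transcript elongation with splicing in human cells, was at 13.1, 15.9, 11.4 and 10.5 CPM in CON and 18.7, 17.5, 16.0 and 19.1 CPM in SM20. Its diets touched without overlapping, at a log2 fold change of 0.48 ± 0.16 (SE) and an adjusted p of 0.164 by edgeR. *ZNF598*, the ubiquitin ligase that marks collided ribosomes, had -0.12 ± 0.16. *ZNF622*, a maturation factor of the large ribosomal subunit, had means of 34.6 ± 3.84 CPM (CON) and 34.7 ± 3.84 CPM (SM20). *ZNF593*, also of ribosome assembly, had -0.13 ± 0.22. The others were *ZNF330* (0.39 ± 0.23), *ZNF277* (0.19 ± 0.21), *ZNF207* of the mitotic spindle (0.09 ± 0.17), *ZNF706* (-0.005 ± 0.14) and the double-stranded RNA binder *ZNF346* (-0.13 ± 0.28).

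Of 12 members that belong to chromatin and cofactor complexes, 7 were positive and 5 negative (median 0.17), and 0 passed by either tool. Leaving out 1 lamb gave medians from 0.10 (without SM20 lamb 3) to 0.25 (without CON lamb 2). ZNF644, which works with the histone methyltransferases EHMT1 and EHMT2, was at 36.6, 52.1, 47.5 and 47.0 CPM in CON and 53.1, 62.5, 52.3 and 70.5 CPM in SM20, a narrow separation with a log2 fold change of 0.38 ± 0.15 (SE) and an adjusted p of 0.211 by edgeR. ZNF281, a repressor that recruits the NuRD complex in mouse stem cells, was at 19.9, 25.1, 32.4 and 31.3 CPM in CON and 32.6, 35.4, 37.6 and 39.3 CPM in SM20. CON lambs 3 and 4 lay just under the lowest SM20 lamb, and the log2 fold change was 0.41 ± 0.16 with an adjusted p of 0.216. ZNF219, described above, also belonged to this group and was lower without overlap, at -0.35 ± 0.14 (SE; adjusted p = 0.222 by edgeR).

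*ZNF451*, a SUMO ligase, had a log2 fold change of 0.26 ± 0.12 (SE), and *ZNF410*, an activator of CHD4 in human cells, 0.18 ± 0.14. *ZNF532* had 0.15 ± 0.13 and *ZNF687* -0.05 ± 0.25. These are partners in a complex that reads histone marks. *ZNF512* and *ZNF512B* had 0.25 ± 0.20 and 0.24 ± 0.22. *ZNF335*, part of a histone methyltransferase complex, had -0.09 ± 0.17, and *ZNF827*, which recruits NuRD to telomeres in human cells, -0.03 ± 0.35.

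*ZNF462*, also of this group, varied widely between the control lambs. It was at 34.8, 75.2, 27.1 and 19.8 CPM in CON and 41.8, 36.1, 36.3 and 37.5 CPM in SM20. CON lamb 2 stood apart, and the log2 fold change of -0.05 ± 0.33 (SE) was 0.47 without that lamb.

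The machinery through which KRAB proteins silence chromatin was described with a list of 24 genes, of which 21 were tested. Of these 15 were positive and 6 negative (median 0.13), and 0 passed by edgeR. Without CON lamb 1 the split was 13 to 8 and the median 0.07, and without SM20 lamb 4 the median was 0.09. *TRIM33*, a relative of TRIM28, went from 8.91 ± 0.571 CPM on the control diet to 14.1 ± 1.65 CPM on molasses without overlap, a log2 fold change of 0.66 ± 0.15 (SE) with an adjusted p of 0.0930 by edgeR and 0.0120 by DESeq2. *MORC3*, a chromatin ATPase, averaged 16.2 ± 1.58 and 23.0 ± 3.61 CPM, also without overlap, with an adjusted p of 0.134 by edgeR. An unadjusted p under 0.05 by edgeR was found for 4 of the 21 (19.0%, against 18.3% of all genes in either direction). All 4 were higher in SM20, a side that held 9.84% of all genes. The diets did not overlap for 4 (19.0%, against 12.2% of all genes in either direction). These were also all higher, a side that held 6.54% of all genes. The log2 fold changes of TRIM28 and SETDB1, named here after their values were seen, were smaller than their standard errors. *TRIM28* had means of 89.6 ± 12.6 CPM (CON) and 92.9 ± 20.3 CPM (SM20), and *SETDB1* 25.1 ± 4.87 and 27.9 ± 2.63 CPM. Both had overlapping diets.

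Subunits of the NuRD, CtBP and CoREST corepressors, with 20 of 23 tested, had 14 positive and 6 negative (median 0.13), and 0 passed by either tool. *RCOR3* had means of 25.0 ± 3.74 CPM (CON) and 33.1 ± 3.40 CPM (SM20; adjusted p = 0.178 by edgeR), and its paralog *RCOR2* 2.42 ± 0.459 and 1.50 ± 0.334 CPM (adjusted p = 0.223 by edgeR). The fold changes of these paralogs had opposite signs, and neither pair of diets overlapped. A list of 24 zinc transporters, metallothioneins and metal-response factors had 16 genes tested, all of them SLC30 or SLC39 transporters, *MTF1* or *MTF2*. The metallothionein genes *MT1A*, *MT1C* and *MT3* did not pass the expression filter and *MT2A* was not in the table, so no metallothionein was tested. Of the 16 genes tested, 10 were positive, with a median of 0.17. By edgeR 0 passed and 0 had an unadjusted p under 0.05, against 18.3% of all genes. Leaving out SM20 lamb 3, CON lamb 1 or SM20 lamb 4 lowered the median to 0.08, 0.09 and 0.10. *MTF1*, the zinc-sensing activator of metallothionein genes, averaged 7.83 ± 0.594 and 10.0 ± 1.25 CPM (adjusted p = 0.277 by edgeR), and the zinc transporter *SLC39A13* 16.1 ± 2.32 and 13.0 ± 1.73 CPM (adjusted p = 0.335 by edgeR).

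Other families of zinc finger genes, grouped by symbol at the same minimum of 1 CPM, were set beside the ZNF genes. The C2H2 families with other names had medians of 0.25 (ZFP, 10 of 12 positive), 0.24 (ZBTB, 23 of 37), 0.31 (ZSCAN and ZKSCAN, 11 of 11), 0.07 (KLF and SP, 10 of 16) and 0.27 (PRDM, 5 of 7). The ZC3H genes, whose CCCH fingers bind RNA, had 0.28 with 11 of 13 positive, and ZC3H12C was the only gene of all these families past the threshold by edgeR, a call lost when any single lamb was left out. The ZCCHC, ZFYVE and joint ZMYM and ZMYND genes had medians of 0.13 (6 of 8 positive), 0.16 (4 of 7) and 0.24 (7 of 8). The ZDHHC palmitoyltransferases, which share little with the others beyond zinc binding, had -0.06 with 8 of 18 positive. Without CON lamb 1 the median of ZNF was 0.03. Those of ZFP, ZBTB, ZSCAN with ZKSCAN and PRDM then lay between 0.19 and 0.20, those of KLF with SP, ZMYM with ZMYND and ZC3H were 0.22, 0.28 and 0.32, and those of ZCCHC, ZFYVE and ZDHHC were 0.09, 0.07 and -0.02. Medians of such small families moved with other lambs too. Leaving out CON lamb 4, SM20 lamb 2 or SM20 lamb 3 turned that of KLF and SP to -0.02, -0.006 and -0.03, and leaving out SM20 lamb 4 gave 0.16. That of ZFYVE ran from 0.02 (without SM20 lamb 1) to 0.30 (without SM20 lamb 3), and that of ZFP from 0.16 (without SM20 lamb 4) to 0.40 (without CON lamb 2). ZCCHC reached 0.23 without CON lamb 2, and ZDHHC ran from -0.10 (without SM20 lamb 3) to -0.02 (without CON lamb 1 or SM20 lamb 2). Of the 11 ZSCAN and ZKSCAN genes, 8 were positive without SM20 lamb 4 (median 0.41) and 10 without CON lamb 1 or CON lamb 2. The difference between families was not tested.

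**Figure D5:**
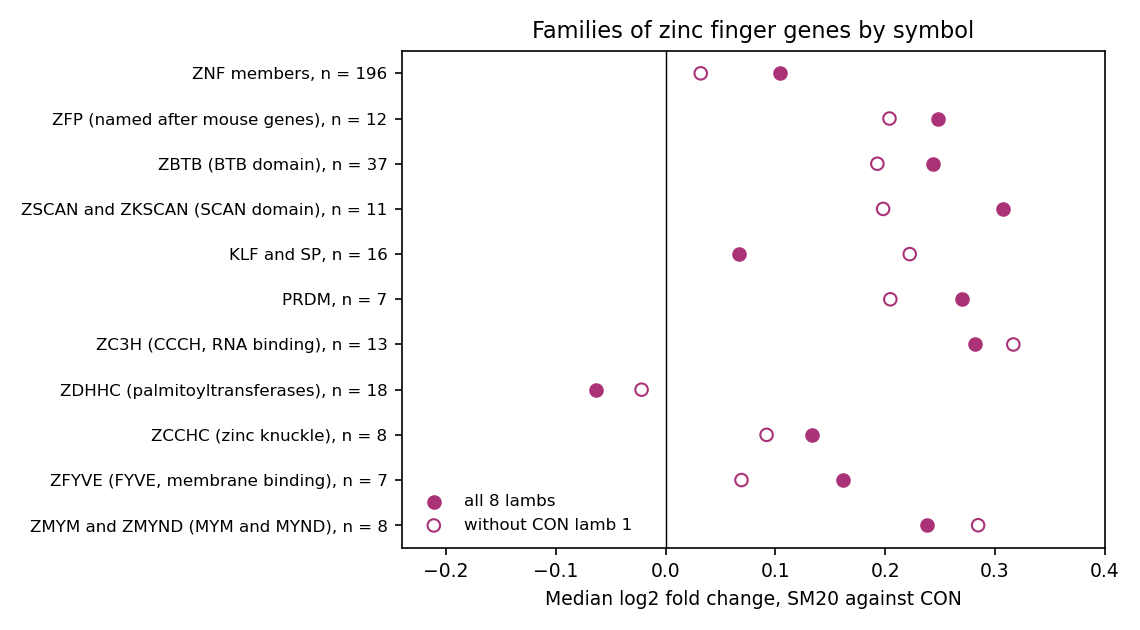
Median log2 fold change of SM20 against CON (x axis) for families of zinc finger genes by symbol (y axis, with the number of genes at a mean of at least 1 CPM), with all 8 lambs (filled) and without CON lamb 1 (open). The ZNF median moves from 0.10 to 0.03.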

How the data were processed

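The authors deposited raw counts, 1 whole number for each gene symbol and library, in 8 libraries. Per the submitters' processing notes, Trim Galore, cutadapt, STAR, featureCounts and DESeq2 were used. Their versions, the genome build, the annotation and any use of strand: not given in the sources used here. If strand was not used, reads of overlapping and antisense genes cannot be told apart. Per the labels' protocols, RNA came from RNeasy columns and libraries from a TruSeq Stranded mRNA kit.

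Here differences between diets were tested across 9779 genes by edgeR 4.0.16 and its quasi-likelihood F-test (R 4.3.3), with diet as the only term, TMM factors, the default filter with a minimum count of 10, and two-sided p-values adjusted by Benjamini-Hochberg over all genes tested, with a threshold of 0.05. The standard error is the log2 fold change divided by the square root of F. Mean levels per lamb use log2 CPM with a prior count of 2. Genes of similar level are all other tested genes between the 5th and 95th percentile of the members' mean log2 CPM. DESeq2 1.42.0 was run on the same 9779 genes. The test was checked on simulated counts with known changes.

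The members and lists were chosen with earlier results of these data known. Genes named are the 8 with the smallest p on each side, the 3 with the highest mean CPM, those at the 1 CPM limit and the members of 4 role lists. From the KRAB machinery, corepressor and zinc lists the 2 with the smallest p are named. The same holds for the muscle fibre, endothelial, satellite cell and adipocyte markers, with KDR and ADIPOQ added for the other direction. Replicate numbers follow accession order and pair nothing. In every pair of libraries the counts differed by at least 20.0 times the sampling noise (chi-square per degree of freedom), so none was counted as a repeat of another. Of the 196 symbols, 172 matched RefSeq ARS-UI_Ramb_v3.0, used for names and gene order only. A planned grouping by protein motifs was not run. Alternatives were other scalings, filters and level limits, DESeq2, and leaving out each lamb. The number of lambs limits the precision, and genes near 1 CPM also rest on few reads.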

Additional observations from a re-analysis of the deposited data

Results flagged for a closer look

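In 4 of 100 sets of 4 lambs looked at (49 genes and the family mean, in each diet), 1 lamb stood far from the other 3; chance flags about 1 in 20 such sets. CON lamb 1 had 10.1 CPM of ZNF414, against 6.87 to 7.30 CPM in the other controls, and without it the log2 fold change of that gene remained negative. CON lamb 4 had 47.3 CPM of ZNF706, against 58.3 to 60.4 CPM. CON lamb 3 had 5.09 CPM of ZNF512, against 6.91 to 7.20 CPM. CON lamb 2 had 34.4 CPM of ZNF410, against 29.1 to 29.4 CPM.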

How the results depend on the processing

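With DESeq2, 4 members passed the threshold over all genes where edgeR gave 0: ZNF148 (0.66), ZNF507 (0.75), ZNF140 (0.58) and ZNF358 (-0.52, log2 fold changes by DESeq2). All edgeR settings gave 0. Leaving out 1 lamb at a time gave 103 to 131 positive and 65 to 93 negative members, with medians of 0.03 to 0.13. An unadjusted p under 0.05 was then found for 23 to 32 members. These were 11.7% to 16.3% of members, against 14.9% to 19.0% of all genes. Between 25 and 32 members had no overlap between diets, against 20 with all lambs. Fewer lambs overlap less easily by construction, and the share of all genes without overlap was not computed for these fits. A limit of 5 CPM left 85 positive and 48 negative members among 133. The difference in mean level between diets was 0.11 with either prior count. Without CON lamb 1, 167 of the 196 members kept their sign. Of the 49 genes named by rule, 15 changed sign under at least 1 setting. With library size alone ZNF660 was at 0.0101, ZNF706 at 0.0480, ZNF462 at 0.0378 and ZNF827 at 0.00671. With upper-quartile factors ZNF622 was at -0.0303 and ZNF384 at -0.0210, and with DESeq2 ZNF622 was at -0.00287. Over the fits that leave out 1 lamb, ZNF793 ran from -0.14 to 0.25, ZNF207 from -0.0476 to 0.19, ZNF622 from -0.0574 to 0.0684, ZNF706 from -0.0854 to 0.0731, ZNF384 from -0.0584 to 0.0649, ZNF660 from -0.10 to 0.0295, ZNF462 from -0.27 to 0.47, ZNF346 from -0.27 to 0.0378, ZNF335 from -0.20 to 0.0415, ZNF687 from -0.21 to 0.10, ZNF827 from -0.46 to 0.18, ZNF75D from -0.0387 to 0.10, ZNF593 from -0.24 to 0.0232, ZNF76 from -0.0524 to 0.21 and ZNF711 from -0.0317 to 0.38. The cause was not tested. No paired analysis was possible because the labels give no replicate numbers shared between diets. The alternative for the KRAB motif was not run.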

Other observations

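Members that lie next to each other in the gene order of RefSeq ARS-UI_Ramb_v3.0, with no other protein-coding gene between, formed 16 runs. They held 40 of the 172 members matched there. The 24 members without a match could not be placed, so runs that hold them are missed or cut short. No expected number of runs of 1 sign was computed. In 3 runs every gene had a positive log2 fold change, in 5 every gene a negative one, and 8 were mixed; without CON lamb 1 the counts were 3, 7 and 6. The longest run of 1 sign held *ZNF605* (0.32), *ZNF26* (0.10), *ZNF84* (0.37) and ZNF140 (0.59). A run of *ZNF784* (-0.33), *ZNF865* (-0.06) and *ZNF524* (-0.25) had the opposite sign. A run of 6, *ZNF398*, *ZNF282*, *ZNF212*, *ZNF783*, *ZNF777* and *ZNF746*, was mixed. Neighbouring members are often similar copies, so reads shared between them are possible, and their part in these values was not tested.

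Some members differed far more between lambs than between diets. The largest biological coefficient of variation, 0.504, belonged to *ZNF546*, at 2.49, 1.55, 7.58 and 0.939 CPM in CON and 4.88, 3.07, 2.49 and 3.78 CPM in SM20. *ZNF566* followed another pattern, with 7.81 CPM in CON lamb 1, 7.51 and 6.14 CPM in SM20 lambs 1 and 2, and 2.50 to 2.81 CPM in the other 5 lambs. At the other end, *ZNF32* had 0.140, at 52.3, 53.9, 49.8 and 48.5 CPM in CON and 45.1, 42.2, 39.0 and 49.4 CPM in SM20. ZNF75D, with 152 to 160 CPM in the 4 controls and 137 to 182 CPM in the SM20 lambs, had a log2 fold change of 0.04 ± 0.12 (SE). These genes were chosen after their values were seen.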
